A study of Mus musculus with 6 samples.

Results

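The HMGA and IGF2BP growth genes were examined at the level of nascent transcription in proliferating mouse muscle stem cells (MuSCs). Members were taken by name from the gene symbols of the deposited table: Hmga1, Hmga2, Igf2bp1, Igf2bp2, Igf2bp3 and Lin28b. Of these 6 names, 5 were found among the 14546 listed genes, and Lin28b was not analysed here. Of the 5, only Hmga1, Hmga2 and Igf2bp2 passed the filter on low values, a mean of at least 0.5 in both measured regions, which left 12451 genes for testing. Igf2bp1 and Igf2bp3 failed it on the region around the transcription start site (TSS), with means of 0.04 and 0.21 RPM (reads scaled to the depth of the library), and were followed by their gene body levels without entering the main tests.

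The data were obtained by PRO-seq, a nuclear run-on assay in which engaged RNA polymerases incorporate a labelled nucleotide, so that reads mark transcription in progress instead of stored mRNA. There were 3 control libraries (Ctrl; Pax7CreERT with wild-type Suv4-20h1) and 3 mutant libraries (Kmt5b sKO; Pax7CreERT with Suv4-20h1 inactivated), Suv4-20h1 being the older name of Kmt5b, a histone H4 lysine 20 methyltransferase. Both groups carried the tamoxifen-dependent Cre recombinase driven by Pax7, so recombination was directed to Pax7-expressing cells of adult animals, and the MuSCs were purified with magnetic beads and expanded in culture with serum, LIF and bFGF before nuclei were taken. The methods describe the 3 libraries of each genotype as biological replicates, and the comparison asks how loss of Kmt5b changes transcription in MuSCs.

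HMGA proteins are small chromatin factors that bind AT-rich DNA in its minor groove, and they are abundant in embryonic and dividing cells. The IGF2BP family are cytoplasmic RNA-binding proteins that stabilise or localise growth-related mRNAs, Igf2 and Myc among them. Both families are classic targets of the let-7 microRNAs, whose maturation is blocked by LIN28 proteins, and Hmga2 and Igf2bp2 act together in the proliferation of myoblasts. These relations act largely on finished RNA, whereas PRO-seq reads the transcription of the genes themselves.

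The feature that joins the members outside the rule is a let-7 seed match in the 3′ untranslated region. The mature let-7a of the mouse (RefSeq, GRCm38.p6) is shown first, with its seed, bases 2 to 8, in capitals, followed by one match of each listed member from the GENCODE M21 transcript, with the 7 letters that pair with the seed in capitals.
mmu-let-7a-5p: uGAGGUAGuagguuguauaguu
Hmga2 (chr10:120364224-120364246, minus strand): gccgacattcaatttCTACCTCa
Hmga1 (chr17:27563277-27563299, plus strand): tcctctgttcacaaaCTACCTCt
Igf2bp1 (chr11:95961778-95961800, minus strand): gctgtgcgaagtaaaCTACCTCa
Igf2bp2 (chr16:22059473-22059495, minus strand): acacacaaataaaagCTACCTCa
Igf2bp3 (chr6:49086787-49086809, minus strand): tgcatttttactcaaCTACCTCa
The word CTACCTC, searched on the transcript strand, occurred 4 times in Hmga2, 4 times in Igf2bp1 and once in each of Hmga1, Igf2bp2 and Igf2bp3. Of 14209 listed transcripts with a 3′ untranslated region, 8.78% held the word at all and 0.0493% held it at least 4 times. The regions of the members were long, from 1177 nt in Hmga1 to 6337 nt in Igf2bp1, against a median of 904 nt, and length raises the chance of a match. Lin28b, which has no values here, also held 4 matches in 4445 nt. A match is a description of the letters and was not tied to any measurement of let-7.

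Hmga2 is a gene of 5 exons on the minus strand of chromosome 10 (120361275 to 120476469, GRCm38). Igf2bp2 has 16 exons on the minus strand of chromosome 16 (22059009 to 22163299), and Hmga1 has 5 exons on the plus strand of chromosome 17 (27556623 to 27563668). Igf2bp1 and Igf2bp3 have 15 exons each and lie on chromosome 11 (95957163 to 96005940) and chromosome 6 (49085223 to 49214957), both on the minus strand. The TSS region was the first 400 nt of the listed isoform and the gene body was the rest. In Hmga2, Igf2bp2 and Igf2bp3 only 2.88%, 3.37% and 3.05% of the body is exonic, so their body level is almost wholly intronic transcription, whereas 22.6% of the body of Hmga1 and 16.5% of that of Igf2bp1 is exonic. GENCODE places the microRNA gene Mir763 inside Hmga2 and Mir3063 inside Igf2bp1 on the same strand.

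The bases upstream of the start sites of Igf2bp2 and Hmga2 are shown because the TSS values below were read just downstream of them (RefSeq, GRCm38.p6, minus strand, 5′ to 3′). Capitals mark GGGCGG or its complement CCGCCC, a GC box.
Igf2bp2 (chr16:22163300-22163549): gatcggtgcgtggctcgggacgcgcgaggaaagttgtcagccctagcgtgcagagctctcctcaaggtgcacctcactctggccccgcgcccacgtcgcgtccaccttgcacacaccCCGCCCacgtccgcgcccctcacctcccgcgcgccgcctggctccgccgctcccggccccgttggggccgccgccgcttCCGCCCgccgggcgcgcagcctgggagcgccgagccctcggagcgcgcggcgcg
Hmga2 (chr10:120476470-120476719): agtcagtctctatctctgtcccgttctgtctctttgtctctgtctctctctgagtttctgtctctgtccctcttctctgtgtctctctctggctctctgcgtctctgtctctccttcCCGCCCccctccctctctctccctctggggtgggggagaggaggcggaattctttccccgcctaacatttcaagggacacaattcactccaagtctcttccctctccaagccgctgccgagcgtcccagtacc
The Igf2bp2 window had a GC content of 77.2% with 40 CpG dinucleotides and 2 GC boxes, and the Hmga2 window, a long run of pyrimidine repeats, had 56.4% with 8 CpG dinucleotides and 1 GC box. GGGCGG was present on either strand in 32.7% of 32851 promoter windows of the same length. TATAAA (12.4% of windows), CCAAT (33.9%), CACGTG (6.02%), the muscle E-box CAGCTG (13.0%) and TGACTCA (4.46%), searched on both strands, were not among the letters of either window.

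Sense reads over listed genes numbered 926904 to 3246052 in the TSS regions and 7425426 to 16249137 in the gene bodies of the 6 libraries, and Kmt5b sKO 2 was the shallowest in both. Kmt5b itself was not lower in the libraries labelled Kmt5b sKO: its gene body was read at 30.6, 35.4 and 38.5 TPM (a level scaled to length and depth) in Ctrl libraries against 37.8, 35 and 42.6 TPM in the mutant ones, and a sum over the whole gene does not resolve a floxed segment. The MuSC markers Pax7, Myod1 and 7 others were listed, with a summed body level of 1605 to 2439 TPM in Ctrl and 2100 to 2831 TPM in Kmt5b sKO, Myod1 supplying 50.4%. The sum does not give one direction for all of these markers. Des, also on the differentiation list below, was read at 420, 558 and 351 TPM in Ctrl against 734, 556 and 921 TPM in Kmt5b sKO. Pax7 was read at 53.7, 36.1 and 26 TPM against 25.5, 29.5 and 28.3 TPM. Fgfr4 was read at 130, 78.6 and 31 TPM against 33.8, 23.2 and 41.2 TPM. Markers of other cell types were present at lower summed levels, in the endothelial list 3.63 to 5.45 TPM in Ctrl and 5.79 to 6.83 TPM in Kmt5b sKO, and in the glial list 13.4 to 16.5 and 21.1 to 29.9 TPM. Emcn, Kdr and Tie1 were not listed, so the endothelial sum rests on 5 genes. In the glial list Sox10 was read at 4.10, 3.64 and 2.14 TPM in Ctrl against 8.14, 15.5 and 8.80 TPM in Kmt5b sKO. Of the macrophage list Ptprc, Adgre1, Csf1r, Lyz2 and Tyrobp were not listed and Cd68 supplied 93.9% of the sum (221 to 446 TPM in Ctrl, 334 to 350 TPM in the mutant), and of the fibroblast list (65.9 to 92.7 and 63.0 to 73.2 TPM) Dcn, Lum and Pi16 were not listed. Smooth muscle and pericyte markers, of which Kcnj8 was not listed, summed to 73.7 to 178 TPM and 102 to 118 TPM. The part of other cell types in the results below was not tested. No listed marker was at 0 in every library.

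Transcription of Igf2bp2 was higher in Kmt5b sKO MuSCs, about 2-fold in the gene body, and it was the one member whose difference passed the test. The Hmga genes, which were transcribed far more strongly, had higher group means in Kmt5b sKO. They varied widely between libraries of one genotype, and neither difference passed. Igf2bp1 and Igf2bp3 were close to the floor of the assay, with body levels that were higher in every Kmt5b sKO library. The same order was found in 21.9% of listed autosomal genes with a mean body level under 3 TPM. The pausing index test called 0 of 11698 genes, so it does not set Hmga1, Hmga2 or Igf2bp2 apart from other genes. Igf2bp1 and Igf2bp3 did not enter it.

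**Figure D1:**
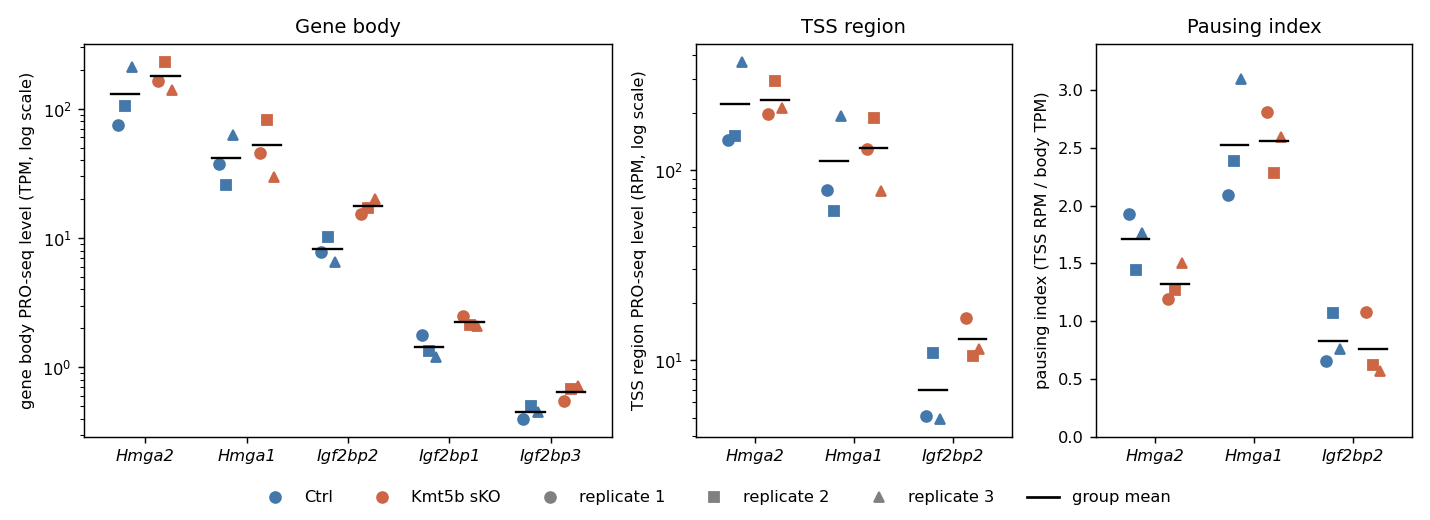
PRO-seq values of the members in each of the 6 libraries: gene body level in TPM on a log axis (left), TSS region level in RPM on a log axis (middle) and pausing index, the TSS value over the body value (right). Blue, Ctrl, and orange, Kmt5b sKO; circles, squares and triangles, replicates 1, 2 and 3; black bars, group means. The blue and orange points separate for the 3 Igf2bp genes in the body and mix for Hmga1 and Hmga2. Orange lay wholly above blue in 12.0% of the genes that passed the filter and in 21.9% of those under 3 TPM.

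Igf2bp2, the family member known from myoblast growth, had gene body levels of 7.80, 10.2 and 6.51 TPM in Ctrl 1, 2 and 3, against 15.5, 17.0 and 20.2 TPM in Kmt5b sKO 1, 2 and 3. Every mutant library was above every control library, so the groups did not overlap. The group means were 8.16 ± 1.86 TPM (SD, n = 3) and 17.5 ± 2.40 TPM (SD, n = 3). The difference was 1.07 on the log2(TPM + 0.5) scale (SE 0.20), a 2.10-fold rise, with an adjusted p = 0.0694 from limma with Benjamini-Hochberg adjustment over 12451 genes, under the threshold of 0.1. In that fit 2.99% of genes were called, 1.61% upward and 1.38% downward, and all 3 Kmt5b sKO libraries were above all 3 Ctrl libraries in 12.0% of genes. The log2 fold change of Igf2bp2 was at the 97.7th percentile of all genes tested. A two-sided exact permutation test over the 6 libraries gave p = 0.1, the smallest that 3 against 3 allows.

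The Igf2bp2 call depended on which library was left out. Without Ctrl 1, or without Kmt5b sKO 1, 2 or 3, the log2 fold change was 1.05, 1.16, 1.09 and 0.97, and the adjusted p from limma was 0.218, 0.198, 0.163 and 0.238. In each of these 4 limma fits 0 of the 12451 genes were called, while 1374 to 1706 had an unadjusted p under 0.05. Without Ctrl 2 or Ctrl 3 the adjusted p was 0.0838 and 0.0544 and the call was kept. With edgeR on the read numbers recovered from the deposited values it was 0.0215.

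The TSS region of Igf2bp2 was sparsely read, with 21, 19 and 26 reads in Ctrl against 51, 16 and 25 in Kmt5b sKO. These gave 5.08, 10.9 and 4.93 RPM in Ctrl against 16.7, 10.6 and 11.5 RPM in Kmt5b sKO. Ctrl 2 lay above Kmt5b sKO 2, so the groups overlapped. The log2 difference was 0.91 (SE 0.40), adjusted p = 0.39 from limma, in a fit that called 1.66% of genes. The pausing index was 0.651, 1.07 and 0.757 in Ctrl against 1.08, 0.622 and 0.570 in Kmt5b sKO, below the library medians of 1.47 to 1.61 throughout and with overlapping groups.

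The gene body of Igf2bp1, the paralog best known from embryonic tissue, was read at 1.77, 1.33 and 1.20 TPM in Ctrl, against 2.49, 2.11 and 2.10 TPM in Kmt5b sKO. These levels rested on 281 reads over the 3 Ctrl libraries and 298 over the 3 Kmt5b sKO libraries, and its TSS region held 1 read in Ctrl 1 and 0 in the 5 others. The groups did not overlap and the mean was 1.56 times higher in Kmt5b sKO. In a limma fit without the filter on low values the log2 fold change was 0.51 (SE 0.20), with an adjusted p = 0.283 over 14068 genes, of which 2.35% were called.

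Igf2bp3, the third paralog, gave 0.40, 0.50 and 0.45 TPM in Ctrl against 0.55, 0.68 and 0.71 TPM in Kmt5b sKO, again without overlap. Its reads numbered 233 in Ctrl and 225 in Kmt5b sKO, and the means differed 1.44-fold. The log2 fold change without the filter was 0.27 (SE 0.19) with an adjusted p = 0.562 from limma, and it was 0.44 with a pseudocount of 0.1. Among the 2774 listed autosomal genes with a mean body level under 3 TPM, 21.9% had all Kmt5b sKO libraries above all Ctrl libraries and 3.82% the reverse, so the order of the libraries in Igf2bp1 and Igf2bp3 is one that weakly read genes often took in these data.

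The 3 Igf2bp genes thus shared an order of the groups but not a level. That order was also found in 12.0% of the genes that passed the filter and in 21.9% of those under 3 TPM. The mean body level of Igf2bp2 was 5.69-fold above that of Igf2bp1 in Ctrl and 7.85-fold above it in Kmt5b sKO. Igf2bp1 was in turn 3.19-fold and 3.45-fold above Igf2bp3. Across the 6 libraries the log2 body level of Igf2bp2 had a Pearson r of 0.928 with that of Igf2bp3 and 0.798 with that of Igf2bp1, as a description over libraries that include both genotypes.

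Hmga2, the embryonic HMGA protein, was the most strongly transcribed member, with gene body levels of 74.9, 105 and 210 TPM in Ctrl, against 165, 231 and 141 TPM in Kmt5b sKO. Ctrl 3 lay above 2 of the 3 Kmt5b sKO libraries, so the groups overlapped, while the other two Ctrl libraries were below all mutant libraries. It ranked from 172nd to 814th from the top among the 12451 genes in the 6 libraries, Ctrl 3 at 182nd and Ctrl 1 at 814th. The means were 130 ± 70.8 TPM in Ctrl and 179 ± 46.6 TPM in Kmt5b sKO (SD, n = 3 each). The log2 fold change was 0.56 (SE 0.37), with an adjusted p = 0.542 from limma, and the exact permutation test gave p = 0.3.

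The Hmga2 result depended on 1 control library. The SD of its log2 body level within Ctrl was 0.754, at the 95th percentile of all genes against a median gene of 0.238. Without Ctrl 3 the log2 fold change was 0.98 and the adjusted p 0.0976, past the threshold, in a fit that called 836 genes in place of 372. The body of Hmga2 held 12567 to 34408 reads per library, so counting error is a small part of these values.

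The TSS region of Hmga2 gave 144, 152 and 370 RPM in Ctrl against 196, 294 and 212 RPM in Kmt5b sKO, Ctrl 3 again being the highest of the 6. The log2 fold change was 0.20 (SE 0.29) with an adjusted p = 0.884 from limma, and its sign turned to -0.03 with edgeR on recovered reads. The pausing index was 1.93, 1.44 and 1.76 in Ctrl against 1.19, 1.27 and 1.5 in Kmt5b sKO, so that only Ctrl 2 lay within the range of the mutant libraries. The index differed by -0.37 on the log2 scale (SE 0.24), at the 11th percentile of genes, with an adjusted p close to 1 from limma. Of 11698 genes with an index 0.0% were called by limma, and 3.86% had an unadjusted p under 0.05.

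Hmga1, the other HMGA gene, common in dividing cells, had gene body levels of 37.7, 25.5 and 62.3 TPM in Ctrl, against 45.6, 82.3 and 29.8 TPM in Kmt5b sKO. The highest value was a mutant library and the lowest a control library, and the groups overlapped over most of their range. The log2 fold change was 0.30 (SE 0.42) with an adjusted p = 0.810 from limma, and its sign turned to -0.08 without Kmt5b sKO 2 and to -0.01 without Ctrl 2. The spread within the mutant group, an SD of 0.728 on the log2 scale, was at the 97.6th percentile of genes.

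The TSS region of Hmga1 gave 78.7, 60.9 and 193 RPM in Ctrl against 128, 188 and 77.3 RPM in Kmt5b sKO. Libraries high in the body were high at the start, with a Pearson r of 0.958 between the 2 regions over the 6 libraries. The corresponding r was 0.901 for Hmga2 and 0.823 for Igf2bp2. The pausing index of Hmga1 was 2.09, 2.39 and 3.09 in Ctrl against 2.81, 2.28 and 2.59 in Kmt5b sKO, above the library median in all 6, and its log2 fold change was 0.04 (SE 0.24).

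**Figure D2:**
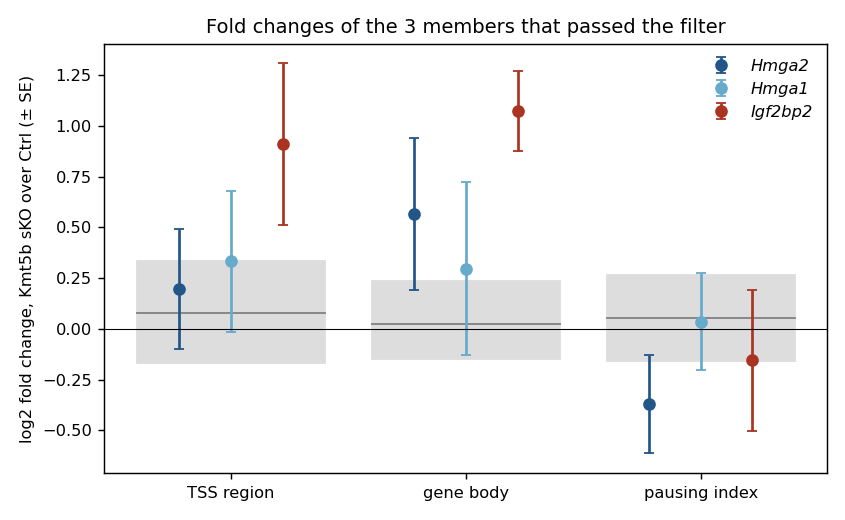
Log2 fold changes of Hmga2, Hmga1 and Igf2bp2, Kmt5b sKO over Ctrl, with the standard error from limma as bars, for the TSS region, the gene body and the pausing index. Grey boxes span the quartiles over all genes tested and grey lines their medians (0.08, 0.02 and 0.05). Igf2bp2 in the body, at 1.07, is the member farthest from its box relative to its error.

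Levels per length could be set side by side across members in the gene body. The order was Hmga2, Hmga1, Igf2bp2, Igf2bp1 and Igf2bp3 in both genotypes, and the ranges of neighbouring members did not overlap in either. Hmga2 was 3.11-fold above Hmga1 in Ctrl and 3.41-fold above it in Kmt5b sKO. Hmga1 was 5.13-fold above Igf2bp2 in Ctrl and 3.0-fold in Kmt5b sKO, the one gap that narrowed. Hmga1 and Hmga2 moved together over the libraries (r = 0.753 over 6), both being high in Ctrl 3 and Kmt5b sKO 2, whereas Igf2bp2 was at its lowest in Ctrl 3.

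The nearest listed genes gave no call around any member. Senp2, 9740 nt from the end of Igf2bp2 and transcribed from the opposite strand, was at -0.29 on the log2 scale (adjusted p = 0.310, limma), opposite in sign to Igf2bp2. Tra2b, 81250 nt beyond its start, was at -0.04. Beside Hmga2, Llph was at -0.04 and Msrb3 at 0.21, and beside Hmga1, Lemd2 was at 0.01, Nudt3 at 0.18 and the overlapping antisense gene AI413582 at 0.50 (adjusted p = 0.472). Snf8 next to Igf2bp1 was at -0.06, and Gpnmb, Tra2a and the overlapping Malsu1 at Igf2bp3 were between 0.13 and 0.18, while Gngt2 beside Igf2bp1 did not enter the test.

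The members were then set beside the genes of their pathways in the gene body fit, whose median over all genes was 0.02 with 6704 genes higher and 5747 lower in Kmt5b sKO. The calls named in the next lists were all lost without Ctrl 1 or any 1 Kmt5b sKO library, since those fits called 0 genes. Of 18 tested genes of the let-7 pathway 0 were called, 9 were higher and 9 lower, with a median of -0.05. Their extremes were the uridylyltransferase gene Zcchc11, which adds U to the let-7 precursor, at -0.46 (adjusted p = 0.142 from limma), and Trim71, itself a let-7 target, at 0.71 (adjusted p = 0.354). By unadjusted p under 0.05, limma passed 3 of the 18.

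Of 30 other let-7 target genes 1 was called, Arid3b, a DNA-binding factor, which rose from 3.97 ± 1.01 to 8.35 ± 1.25 TPM (SD, n = 3 each; log2 fold change 1.0, adjusted p = 0.0896 from limma). Of the list 18 genes were higher and 12 lower, with a median of 0.05, so the share called, 3.33%, was near the 2.99% of all genes; without Ctrl 3 the list had 5 calls. The let-7 targets named here outside the members were taken from textbook knowledge and not from the seed search above.

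Of 17 tested genes of the insulin-like growth factor pathway 1 was called and 11 were higher, with a median of 0.16. That 1 call was 5.88% of the list, against 2.99% of all genes. Igfbp2, which binds IGFs outside the cell, rose from 3.66 ± 0.35 to 10.1 ± 2.89 TPM (log2 fold change 1.31, adjusted p = 0.0691 from limma), a list with 0 calls without Ctrl 2 and 3 without Ctrl 3. Of 19 genes whose mRNAs are known clients of IGF2BP proteins 1 was called and 13 were higher, with a median of 0.07. The 1 called gene was 5.26% of the list, again against 2.99%. That gene, Ccng1, encodes cyclin G1 and is also a p53 target, and it rose from 45.6 ± 6.10 to 80.6 ± 13.6 TPM (log2 fold change 0.81, adjusted p = 0.0798 from limma), and the list had 5 calls without Ctrl 3.

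Of 12 tested genes for other HMG proteins 1 was called, 8.33% against 2.99% of all genes, and it fell. Hmgb2, an HMG-box protein abundant in dividing cells, dropped from 118 ± 14 to 47.7 ± 5.91 TPM (SD, n = 3 each; log2 fold change -1.30, adjusted p = 0.0609 from limma), and 8 of the 12 were lower with a median of -0.14. Without Ctrl 3 the list had 2 calls. Of 24 other genes for mRNA-binding and stability factors 0 were called, against 2 at an unadjusted p under 0.05 in limma. They were the most even list, with a median of -0.01 and extremes of -0.19 in Matr3 and 0.57 in Stau2 (adjusted p = 0.642 and 0.195).

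**Figure D3:**
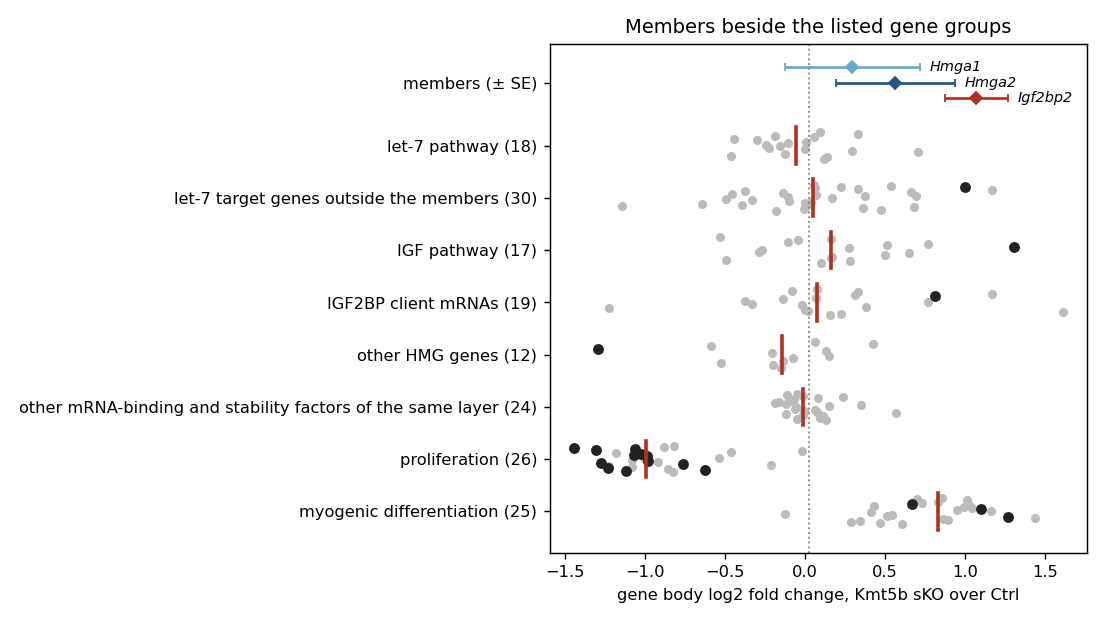
Gene body log2 fold changes, Kmt5b sKO over Ctrl, of the tested genes of 8 lists (number in brackets), with the 3 members that passed the filter at the top with their standard errors. Black points passed an adjusted p of 0.1 in limma and grey points did not; red bars are list medians and the dotted line is the median of all genes. The let-7, IGF and IGF2BP lists centre near the dotted line, while proliferation and myogenic differentiation, with medians of -0.99 and 0.83, lie on opposite sides of it.

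Growth genes of this kind are usually read beside the state of the cells, so proliferation and differentiation genes were measured in the same libraries. Of 26 proliferation genes 26 were lower and 12 were called, with a median of -0.99, where 1.38% of all genes were called downward. These 12 calls became 20 without Ctrl 3, 4 without Ctrl 2, and 0 without Ctrl 1 or any 1 of the Kmt5b sKO libraries. The 2 largest falls were in Bub1, a spindle checkpoint kinase (-1.44, adjusted p = 0.0609 from limma), and Ccna2, cyclin A2 (-1.31, adjusted p = 0.0610). Of 25 myogenic differentiation genes 3 rose (Mef2a at 0.67, Myl1 at 1.1 and Tnnc1 at 1.27), 24 were higher and the median was 0.83, where 1.61% of all genes were called upward. The 3 calls became 6 without Ctrl 2, 4 without Ctrl 3, and 0 without any 1 of the other 4 libraries. Summed levels of mature muscle fibre markers were 285 to 602 TPM in Ctrl against 584 to 1133 TPM in Kmt5b sKO.

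Across libraries the level of Igf2bp2 ran with that of the differentiation genes, and both Hmga genes ran in another order. The mean log2 level of the differentiation list was 7.42, 7.74 and 6.84 in Ctrl 1, 2 and 3, against 8.07, 7.84 and 8.37 in Kmt5b sKO 1, 2 and 3, which is the order of the Igf2bp2 levels except for Kmt5b sKO 1 and 2. The r between them was 0.929 over the 6 libraries, which include both genotypes. Of the 12450 other genes 549 had an r above 0.9 to Igf2bp2. The mean of the proliferation list was 5.38, 5.12 and 4.91 in Ctrl against 3.99, 4.29 and 4.37 in Kmt5b sKO, with r = -0.802 to Igf2bp2 and -0.678 to Hmga2. The part of the cells' state in the Igf2bp2 difference was not tested, and in bulk libraries a change in the mixture of cell states and a change within each cell cannot be told apart.

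**Figure D4:**
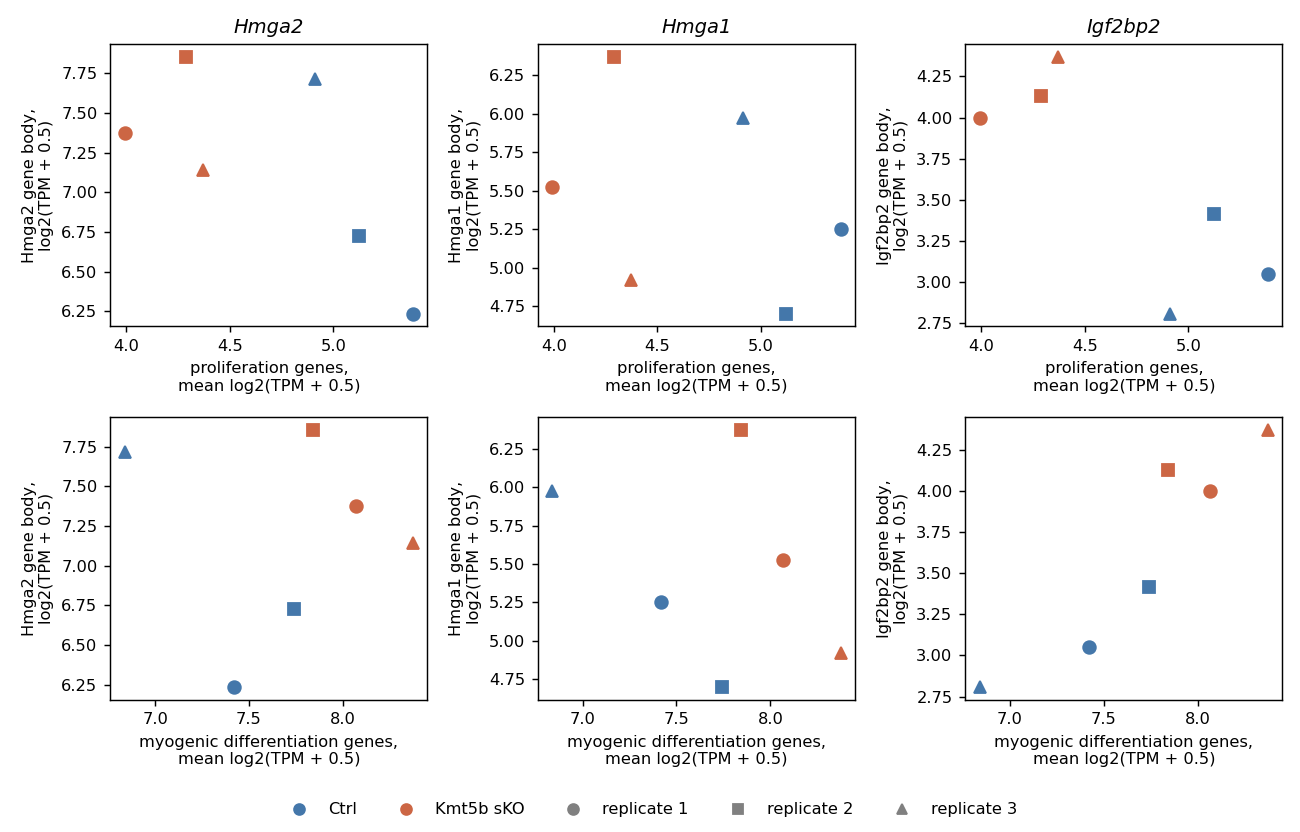
Gene body level of Hmga2, Hmga1 and Igf2bp2, as log2(TPM + 0.5), against the mean of the same quantity over 26 proliferation genes (top row) and 25 myogenic differentiation genes (bottom row) in each library; blue, Ctrl, orange, Kmt5b sKO, and shapes give the replicate. Igf2bp2 is higher where the differentiation genes are higher (r = 0.929, 6 libraries of both genotypes). Against the same genes r was -0.368 for Hmga1 and -0.045 for Hmga2. Against the proliferation genes r was -0.802 for Igf2bp2, -0.678 for Hmga2 and -0.348 for Hmga1.

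Genes most like each member over the 6 libraries were found by the Pearson r of log2 body levels. For Igf2bp2 they were Fsd2 and Tle4 (r = 0.998 and 0.996), and 549 of the 12450 other genes had an r above 0.9 to it. For Hmga2 Dock8 was among them (0.993), with 161 genes above 0.9, and for Hmga1 they were Tnf and Zfp558 (0.989 and 0.988), with 70. For Igf2bp1 they were Hyal3 and Stambpl1 (0.988 and 0.985) and for Igf2bp3 Dazap2 and Wasf3 (0.990 and 0.989). With 6 libraries of 2 genotypes many genes reach such values, and no test was made of them.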

How the data were processed

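Per the labels and the methods, the authors prepared PRO-seq from cultured MuSCs, trimmed reads (Trimmomatic 0.39, quality by FastQC 0.11.8), aligned them with STAR 2.6.1d to mm10, placing multimapping reads at one random position, removed duplicates with Picard 2.18.16, and summed sense reads over the first 400 nt (TSS) and the rest (gene body) of protein-coding isoforms, keeping 1 isoform per gene. The deposited TSS column is named TPM in the methods, but its values are whole multiples of one step per library (100% of values in all 6), so it is read here as RPM set by the authors; the deposited gene body values are TPM. Members and gene lists were chosen with earlier results of these data known.

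Here log2(value + 0.5) was tested with limma 3.58.1 (R 4.3.3, trend) over the 12451 listed autosomal genes whose mean was at least 0.5 in both regions, with genotype as the only term, Benjamini-Hochberg adjustment over all of them and a threshold of 0.1; the pausing index used log2(TSS/body) where all values were above 0. Whole reads recovered from the steps were tested with edgeR 4.0.16, which called 748 genes in the body and 279 in the TSS. The script was tested on simulated data. Libraries were compared over 3 samples per group, so p-values rest on the spread between these. In limma the variance of each gene is also drawn toward a trend over all genes tested. The SE and p are therefore not those of the gene's own spread alone. Without the trend the SE at the TSS was 0.40 for Hmga2 and 0.49 for Hmga1, against 0.29 and 0.35 with it. Named genes were the members, every called gene of a list (where over 4, the 2 largest rises and 2 largest falls among them; where none, both extremes), the 2 genes most like each member, its neighbours and cell type markers. Alternatives were other pseudocounts, no filter, no trend, other scalings, edgeR, a replicate block, a stricter threshold and leaving out each library. Same-numbered libraries of the 2 groups did not deviate together. Sites and promoters were read from GENCODE M21 and RefSeq tables of GRCm38. No protein sequence table was used here. Some items that these rules would name are not reported here.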

Additional observations from a re-analysis of the deposited data

How the results depend on the processing

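The gene body difference of Igf2bp2 kept its direction under every alternative run, 0.93 to 1.23 on the log2 scale when 1 library was left out. With the replicate numbers as a block it was 1.07 with an adjusted p = 0.247 from limma; that block left 0 genes called by limma in either region (1441 in the body and 1141 at the TSS had an unadjusted p under 0.05), and same-numbered libraries correlated at -0.03 to -0.33 in their deviations, so the numbers were not taken to pair them. Leaving out 1 library gave 0.24 to 0.98 for Hmga2 and -0.0848 to 0.64 for Hmga1 in the body, 0.42 to 0.63 for Igf2bp1 and 0.23 to 0.33 for Igf2bp3. In the TSS region it gave -0.00317 to 0.82 for Hmga1, -0.0411 to 0.64 for Hmga2 and 0.72 to 1.26 for Igf2bp2. For the pausing index it gave -0.0913 to 0.19 for Hmga1, -0.49 to -0.28 for Hmga2 and -0.44 to 0.0491 for Igf2bp2. The sign of Hmga2 at the TSS turned with edgeR (-0.035), and that of the Hmga1 index turned on centring (-0.0176) and in reads per nt (-0.0119). The body difference of Igf2bp3 moved to 0.44 with a pseudocount of 0.1. At an adjusted p under 0.05, and under the block, 0 genes of each list were called. Without 1 library the number of called genes ranged from 0 to 1 in the let-7 pathway, 0 to 5 in let-7 targets, 0 to 3 in the IGF pathway, 0 to 5 in IGF2BP clients, 0 to 2 in other HMG genes, 0 to 20 in proliferation and 0 to 6 in myogenic differentiation. Calls over all genes in the body were 372, but 748 by edgeR and 836 without Ctrl 3, and 207 at the TSS but 0 in limma without the filter or without the trend (1448 and 1292 at an unadjusted p under 0.05; edgeR called 279). The causes were not tested. The TSS reads of Igf2bp2, 16 to 51 per library, limit what its TSS value and index can show.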
